A study of Mus musculus with 7 samples.

Results

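The teneurins, the latrophilins and the FLRT proteins are cell-surface adhesion molecules, and the mouse genome encodes them in 10 genes: *Tenm1*, *Tenm2*, *Tenm3* and *Tenm4*, *Adgrl1*, *Adgrl2* and *Adgrl3*, and *Flrt1*, *Flrt2* and *Flrt3*. They were chosen by symbol as whole families from 52636 genes counted in dorsal midbrain RNA-seq. All 10 were abundant enough to be tested, among 21817 genes tested. The dorsal midbrain of 7 neonatal mice was profiled to ask how loss of the transcription factor Brn3b (gene *Pou4f2*) alters gene expression there. The 3 controls (mice A2, A4 and A6) were *Brn3b* flox/+ :: En1-Cre and the 4 mutants (B1, B7, B8 and B9) were *Brn3b* flox/- :: En1-Cre, called cKO, so both groups carried En1-Cre and 1 conditional allele, whose recombination switches on alkaline phosphatase. En1-Cre acts in the midbrain and hindbrain, and whether *Brn3b* neurons elsewhere in the dissected tissue kept the gene was not tested. A2, A6, B1 and B8 were collected at postnatal day 4 (P4), A4 at P3, and the cKO mice B7 and B9 at P2, an age with no control.

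Teneurins are large single-pass proteins with a long extracellular part, and their C-terminal region binds latrophilins, which are adhesion G protein-coupled receptors, on the facing cell. Latrophilins also bind FLRT proteins, which carry leucine-rich repeats outside the cell and bind Unc5 receptors as well. In the visual system these molecules are known for matching axons with their targets, and *Tenm3* in particular for the mapping of retinal axons in the superior colliculus and visual thalamus.

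The labels were checked first. *Pou4f2* stood at 46.5, 47.4 and 45.8 counts per 1000000 counts (CPM) in the controls A2, A4 and A6 and at 9.65, 9.67, 10.6 and 11.6 CPM in the cKO mice B1, B7, B8 and B9. Its log2 fold change, cKO over control, was -2.16 ± 0.13 (SE), with an adjusted p of 5.66e-04 in edgeR's quasi-likelihood test. Of the dorsal midbrain markers, 8 of 8 were detected in every library, and their summed level was 830 to 910 CPM in controls and 801 (B8) to 1316 CPM in cKO mice. Library totals on genes lay between 23588248 (A2) and 87572085 counts (B9). The P2 cKO mice B7 (67792192 counts) and B9 were the deepest, and no other library exceeded 40411968 counts (A4). B8 stood apart from B1, B7 and B9, while its *Pou4f2* level was that of a mutant. Its sample quality weight was 0.167, the lowest of the 7 libraries. Such weights come from how far each library's counts lie from its group in the genotype fit, so they restate this difference. In depth (39251318 counts) and in counts that named no gene (37.47%) B8 lay within the range of the other libraries. It stays in every value below unless stated.

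The genes differed widely in level. Per kb of exon, with each gene's exons merged, *Adgrl1*, which encodes latrophilin 1, was the most abundant at 86.5 ± 11.6 CPM per kb (mean ± SD, n = 7 mice), and its lowest library, 71.4 CPM per kb, lay above the highest library of any other member. *Tenm2* followed at 43.1 ± 5.29 CPM per kb, *Tenm3* at 21.0 ± 15.7 and *Adgrl2* at 19.5 ± 8.12. *Adgrl3*, *Flrt2* and *Tenm4* lay at 8.42, 8.39 and 7.11 CPM per kb, and *Flrt3*, *Flrt1* and *Tenm1* at 5.62, 4.77 and 4.54. Apart from *Adgrl1*, the range of every gene over the 7 mice overlapped that of the next gene in this order. In the 3 controls alone *Tenm3* averaged 8.97 ± 2.33 CPM per kb and *Tenm1* 2.10 ± 0.62, and *Adgrl2*, at 13.4 ± 1.75, lay above *Tenm3*. In cKO mice *Tenm3* averaged 30.1 ± 15.3 and *Adgrl2* 24.1 ± 8.03 CPM per kb (SD, n = 4). Per kb of the longest annotated transcript in place of merged exons, *Adgrl1* and *Tenm2* kept the first and second places, and *Adgrl2* passed *Tenm3* with 45.7 CPM per kb.

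**Figure D1:**
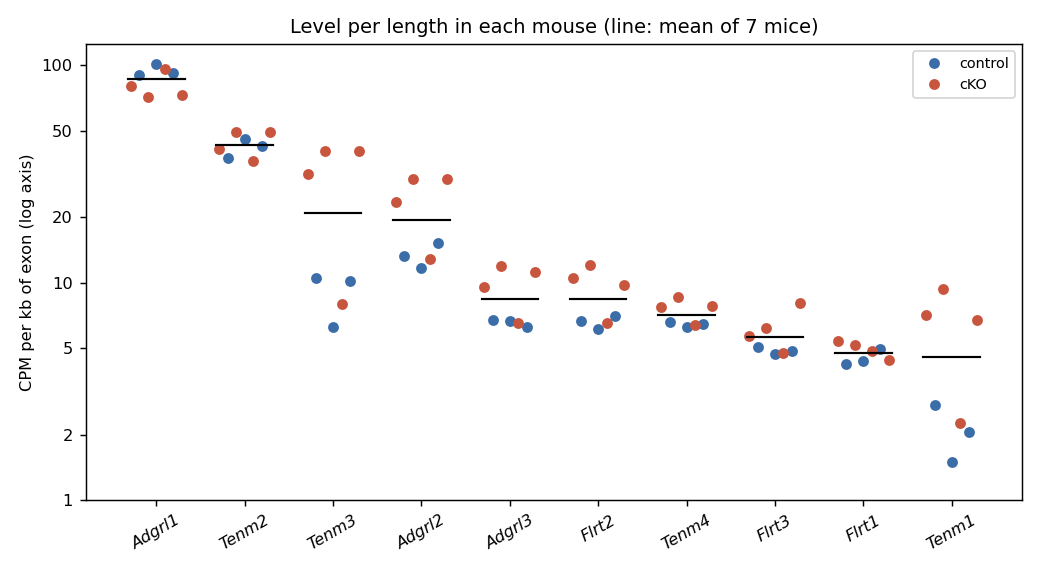
Level of each gene in CPM per kb of merged exon (log axis) in each of the 7 mice, in blue for the 3 controls and red for the 4 cKO mice; lines are means over the 7 mice. *Adgrl1* lies above every other gene in every mouse, and *Tenm3* and *Tenm1* have the widest spread, from 6.28 to 40.4 and from 1.50 to 9.38 CPM per kb.

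Among the teneurins, *Tenm3* and *Tenm1* had the largest differences between groups, and 3 of the 4 cKO mice carried them. *Tenm3* was at 107, 64.3 and 104 CPM in the controls A2, A4 and A6, and at 325, 414, 81.4 and 411 CPM in the cKO mice B1, B7, B8 and B9. B1, B7 and B9 lay at least 3.03-fold above the highest control, and B8 lay within the control range. The log2 fold change was 1.75 ± 0.48 (SE; a 3.36-fold higher level), and it did not pass edgeR's test over all genes, with an adjusted p of 0.138. *Tenm3* spans 616.3 kb on the minus strand (chr8:48227682-48843951, GRCm38), with 10.24 kb of merged exon.

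*Tenm1*, an X-linked gene (chrX:42527866-43429126, minus strand), was at 48.5, 26.6 and 36.6 CPM in the controls and at 126, 167, 40.1 and 120 CPM in B1, B7, B8 and B9. Again B1, B7 and B9 lay above every control and B8 among them, and the log2 fold change was 1.61 ± 0.42 (SE), with an adjusted p of 0.138 in edgeR. The libraries differed in *Xist*, the X-inactivation RNA, which was at 693 CPM in A2 and between 1.53 and 2.61 CPM in the other 6. A2 was also the control with the most *Tenm1*, and the part of X dosage in that level was not tested. An exon stretch of 1465 bases lies opposite exons of *Sh2d1a* on the other strand. The libraries were strand-specific, but the strand setting of the counting is not given in the sources used here, so its effect on these counts is uncertain. The same holds for exons of *Adgrl3*, *Adgrl1*, *Tenm4*, *Adgrl2* and *Tenm3*, which share 1582, 1107, 988, 202 and 114 bases with an exon on the other strand.

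*Tenm4* and *Tenm2* differed far less. *Tenm4* (chr7:96171246-96911093, plus strand) was at 139, 132 and 136 CPM in the controls, and at 162, 180, 134 and 164 CPM in B1, B7, B8 and B9. The SD of the controls was 3.87 CPM, and B1, B7 and B9 were all above them. Its log2 fold change was 0.24 ± 0.13 (SE), with an adjusted p of 0.235 in edgeR. *Tenm2* (chr11:36006656-37235964, minus strand), the longest of the 10 genes at 1229.3 kb, was at 428, 525 and 486 CPM in the controls and 472, 564, 417 and 568 CPM in the cKO mice, and the groups were interleaved (log2 fold change 0.07 ± 0.15, SE).

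The latrophilins of B1, B7 and B9 lay on both sides of the controls, *Adgrl2* and *Adgrl3* above and *Adgrl1* below. *Adgrl2* (chr3:148815583-148990555, minus strand) was at 188, 166 and 216 CPM in the controls and at 334, 425, 183 and 424 CPM in B1, B7, B8 and B9. Its log2 fold change was 0.85 ± 0.27 (SE), with an adjusted p of 0.138 in edgeR. *Adgrl3* (chr5:81020138-81825133, plus strand) was at 119, 119 and 112 CPM in the controls and 169, 212, 116 and 200 CPM in the cKO mice, a log2 fold change of 0.58 ± 0.20 (SE). For both genes B8 lay within the control range and the other 3 cKO mice above it. *Adgrl1* (chr8:83900105-83941954, plus strand) was at 778, 873 and 789 CPM in the controls and at 693, 613, 825 and 630 CPM in B1, B7, B8 and B9. Here B1, B7 and B9 lay below every control, and the log2 fold change was -0.24 ± 0.14 (SE), with an adjusted p of 0.247 in edgeR. *Adgrl1* lies 5.46 Mb from *Pou4f2* on the same chromosome, and *Tenm3* 29.59 Mb from it. The cKO mice inherited a null *Pou4f2* allele where the controls had an intact one, and the part of sequence linked to that allele was not tested.

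The FLRT genes were at lower levels per kb than the latrophilins on average, and *Flrt2* had the largest difference of the 3. *Flrt2* (chr12:95692226-95785215, plus strand) was at 51.5, 47.2 and 54.5 CPM in the controls and at 81.4, 92.8, 50.5 and 75.2 CPM in B1, B7, B8 and B9, with B8 again among the controls. Its log2 fold change was 0.55 ± 0.20 (SE), with an adjusted p of 0.138 in edgeR. *Flrt3* (chr2:140650914-140671469, minus strand), which lies in an intron of *Macrod2* on the opposite strand, was at 24.6, 22.9 and 23.7 CPM in the controls and 27.7, 30.1, 23.0 and 39.3 CPM in the cKO mice. B9 was the highest of the 7 libraries for this gene. *Flrt1* (chr19:7092001-7105729, minus strand), in an intron of *Macrod1* on the opposite strand, was at 24.7, 25.7 and 29.1 CPM in the controls and 31.7, 30.4, 28.5 and 26.0 CPM in B1, B7, B8 and B9. The *Flrt1* groups overlapped without B8 as well as with it. Their log2 fold changes were 0.34 ± 0.18 for *Flrt3* and 0.14 ± 0.14 for *Flrt1* (SE).

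**Figure D2:**
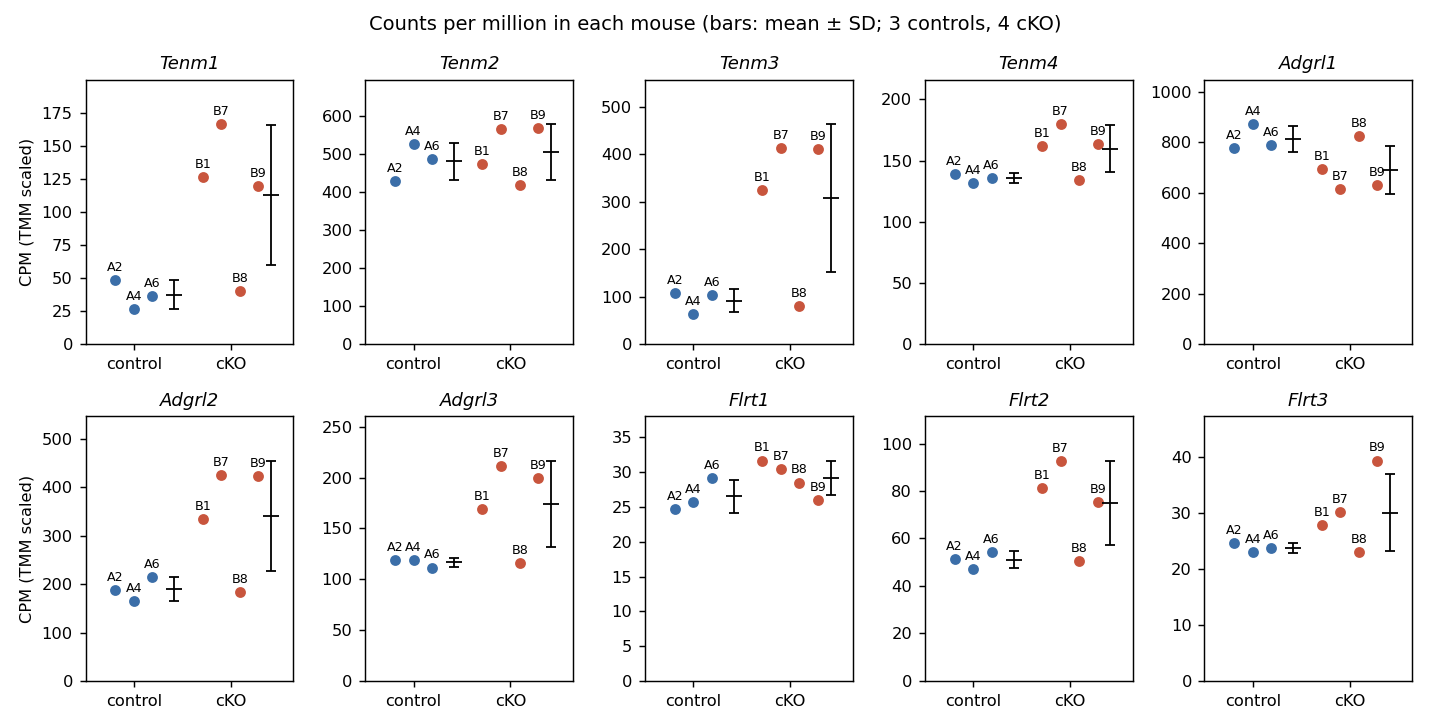
CPM of each gene in every mouse (linear axes from 0), with controls in blue and cKO mice in red; the black marks beside each group are its mean ± SD (3 controls, 4 cKO mice). B1, B7 and B9 lie above the control range for 7 genes and below it for *Adgrl1*, and B8 lies within it or beside it.

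Promoter sequence was read for the members whose starts the RefSeq table holds, 9 of the 10 (all but *Flrt1*), as the 250 bases before each start on GRCm38.p6. The letters TAATTA and AATTAAT, an AT-rich core that POU and homeodomain factors are known to favour, were searched on both strands; the 2 strings overlap each other in TAATTAAT. TAATTA was found in 4.84% and AATTAAT in 2.46% of 32851 windows. Among the members only *Tenm3* held both, starting 246 bases before its start, and *Tenm4* held AATTAAT on both strands, overlapping, 215 bases before the upstream of its 2 starts. The 120 bases farthest from the start are shown for these and for *Adgrl1*, whose window held neither string. That window had 68.8% GC and 21 CpG (medians over all windows 52.4% and 6). Capitals mark the matches. The *Tenm3* stretch (chr8:48674821-48674940, minus strand) lies within the gene, in an intron of an annotated transcript that starts further upstream, and those of *Tenm4* (chr7:96170994-96171113, plus strand) and *Adgrl1* (chr8:83899848-83899967, plus strand) lie upstream of all annotated exons.
Tenm3: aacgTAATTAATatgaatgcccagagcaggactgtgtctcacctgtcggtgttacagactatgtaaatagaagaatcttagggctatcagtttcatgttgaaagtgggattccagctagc
Tenm4: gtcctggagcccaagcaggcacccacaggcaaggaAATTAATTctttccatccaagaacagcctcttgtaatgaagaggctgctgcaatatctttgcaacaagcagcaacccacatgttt
Adgrl1: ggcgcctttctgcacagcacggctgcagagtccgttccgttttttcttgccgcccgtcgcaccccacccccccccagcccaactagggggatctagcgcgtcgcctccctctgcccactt
A match of these letters is a description of the sequence, not a binding site, and the lack of one says only that these letters are not in the window. *Tenm1*, with the second largest fold change of the 10, had neither string in a window of 27.2% GC. *Tenm2*, *Adgrl2*, *Adgrl3*, *Flrt2* and *Flrt3*, which like *Tenm1* had log2 fold changes above 0, also held neither string. The first of the 3 *Adgrl3* windows had 76.8% GC and 36 CpG.

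Over the 10 genes, 9 had a log2 fold change above 0 and 5 had an unadjusted p under 0.05 in edgeR's test, and 0 passed at an adjusted p under 0.05. Over all genes tested edgeR called 1 gene, *Pou4f2*, or 0.00458%, and 6633 genes had an unadjusted p under 0.05, or 30.4%. The median log2 fold change of the 10 genes was 0.45, beside 0.0025 over all genes tested. No member separated the groups in CPM. Over all genes the cKO mice were all above the controls for 6.03% and all below them for 8.01%. Without B8 the other 3 cKO mice were above every control for 7 members, where 28.2% of all genes were, and below every control for 1 member, where 28% of all genes were. With 7 mice an exact permutation test cannot go below a two-sided p of 0.0571, and the members' p lay between 0.114 (*Tenm1*) and 0.629 (*Tenm2*). By DESeq2, 3 members were called, all higher in cKO mice: *Tenm1* (adjusted p = 0.00638), *Adgrl2* (adjusted p = 0.0394) and *Tenm3* (adjusted p = 0.0430), where that test called 9.97% of the 19377 genes to which it gave an adjusted p. Leaving out 1 mouse ended these DESeq2 calls for *Adgrl2* without any mouse but B8 (adjusted p = 0.105 to 0.286), for *Tenm3* without A4, B7 or B9 (adjusted p = 0.147, 0.191 and 0.173) and for *Tenm1* without A4 or B7 (adjusted p = 0.144 and 0.0587). In bulk tissue, more cells expressing a gene and more RNA per cell cannot be told apart.

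Leaving out B8 changed the calls. Without it edgeR called 8 of the 10 genes, 7 higher and *Adgrl1* lower, and *Tenm2* and *Flrt1* did not pass. The log2 fold changes became 2.06 ± 0.18 for *Tenm3* (adjusted p = 5.31e-05), 1.89 ± 0.20 for *Tenm1* (adjusted p = 7.08e-05) and 1.05 ± 0.13 for *Adgrl2* (adjusted p = 1.06e-04; SE in each case). Those of *Adgrl1* and *Tenm4* stayed small, at -0.34 ± 0.10 and 0.31 ± 0.10 (SE). In the same fit 46.7% of all genes were called. limma-voom with sample quality weights, which keeps B8 at a low weight, called the same 8 genes and 48.5% of all genes.

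The members are long genes, and the difference between groups followed gene length and base composition across the transcriptome. Merged exon length ranged over the 10 genes from 4.86 kb (*Flrt3*) to 21.02 kb (*Tenm4*). Over all genes tested, the median log2 fold change was -0.30 for exons of up to 1 kb, 0.36 for the 1880 genes of 8 to 12 kb and 0.56 for the 883 genes above 12 kb, of which 92.64% were above 0. Without B8 the medians of the shortest and longest classes were -0.44 and 0.71. By GC content of the longest transcript it went from 0.26 at up to 40% GC to -0.32 above 55% GC. *Tenm1*, *Tenm4*, *Adgrl2* and *Adgrl3* belong to the longest class, *Tenm2*, *Tenm3* and *Adgrl1* to the class of 8 to 12 kb. *Tenm3* lay 1.38 above the median of its class on the log2 scale, higher than 99.1% of the class, and *Tenm1* 1.05 above, higher than 98.0%. *Adgrl3* lay at its class median, 0.02 above it. *Tenm4*, *Tenm2* and *Adgrl1* lay 0.32, 0.29 and 0.60 below their class medians.

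**Figure D3:**
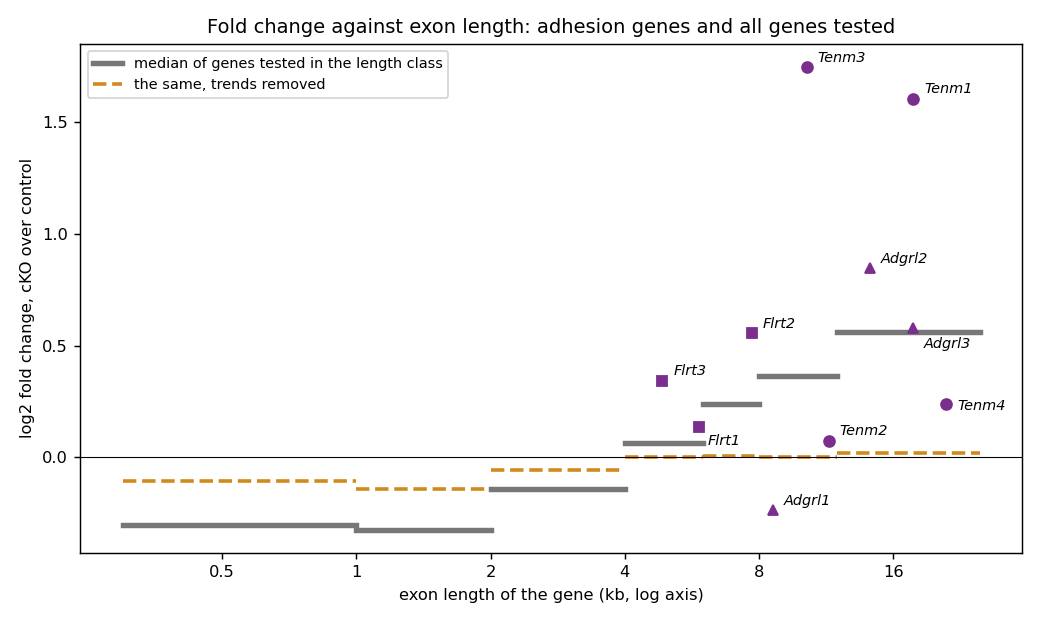
Log2 fold change, cKO over control, against merged exon length in kb (log axis). Purple symbols are the 10 genes (circles teneurins, triangles latrophilins, squares FLRT genes); grey bars are the medians of all tested genes in each length class (the first and last are open-ended) and orange dashed bars the same after the trends were removed. The grey medians are -0.30 and -0.32 in the 2 shortest classes and climb from there to 0.56 in the longest, and *Tenm3* and *Tenm1* lie far above the bars of their classes.

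To compare raw and corrected changes, a smooth trend of each library's log2 CPM on exon length and GC content was fitted over all tested genes and entered as an offset, so that corrected changes are relative to genes of like length and GC. The trend alone gave *Tenm1* 0.64 more in cKO mice on the log2 scale, *Adgrl3* 0.59 and *Adgrl2* 0.54, and *Adgrl1*, with 59.1% GC the richest of the 10, -0.02. This trend was that of B1, B7 and B9: for *Tenm1* it was 0.34, 0.61 and 0.50 in them, -0.36 in B8 and -0.53 to -0.27 in the controls, and for *Adgrl3* and *Adgrl2* B8 likewise lay within the controls. After the correction the median over the length classes lay between -0.14 and 0.02.

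*Tenm3* kept the largest corrected change, 1.34 ± 0.38 (SE; a 2.53-fold higher level), and lay above 96.5% of all genes tested. *Tenm1* kept 0.87 ± 0.24 (SE; 1.83-fold), above 92.4% of genes. Neither passed, with adjusted p = 0.136 for both in edgeR. Corrected log2 CPM of *Tenm3* was 6.92, 6.24 and 6.88 in the controls and 8.17, 8.40, 6.50 and 8.41 in B1, B7, B8 and B9. For *Tenm1* it was 5.87, 5.27 and 5.49 in the controls and 6.64, 6.77, 5.68 and 6.41 in the cKO mice. B1, B7 and B9 thus stayed above every control for both genes after correction, with B8 within the control range.

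The estimates of most other members shrank or changed sign. The log2 fold change went from 0.85 to 0.25 ± 0.13 (SE) for *Adgrl2*, from 0.55 to 0.12 ± 0.11 for *Flrt2* and from 0.34 to 0.11 ± 0.15 for *Flrt3*. That of *Adgrl3* turned from 0.58 to -0.06 ± 0.10, that of *Tenm4* from 0.24 to -0.20 ± 0.10 and that of *Tenm2* from 0.07 to -0.27 ± 0.11. *Adgrl1* and *Flrt1* shifted by only 0.02 and -0.03, to -0.22 ± 0.11 and 0.10 ± 0.12 (SE). In corrected log2 CPM *Tenm4* was at 7.35, 7.35 and 7.29 in the controls and 7.11, 7.11, 7.26 and 7.03 in B1, B7, B8 and B9, so all 4 cKO mice lay below the controls, the reverse of the order of B1, B7 and B9 in CPM. *Tenm2* did so too, at 8.92, 9.25 and 9.09 in the controls and 8.71, 8.86, 8.85 and 8.88 in the cKO mice. These were 2 of the 10 genes, and 10.2% of all genes tested lay below all controls in corrected values, while 0 members and 4.83% of all genes lay above. Without B8, *Tenm1*, *Tenm3* and *Adgrl2* lay above every control in corrected values, as 20.6% of all genes did, and *Tenm2*, *Tenm4* and *Adgrl1* below, as 26.7% did.

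**Figure D4:**
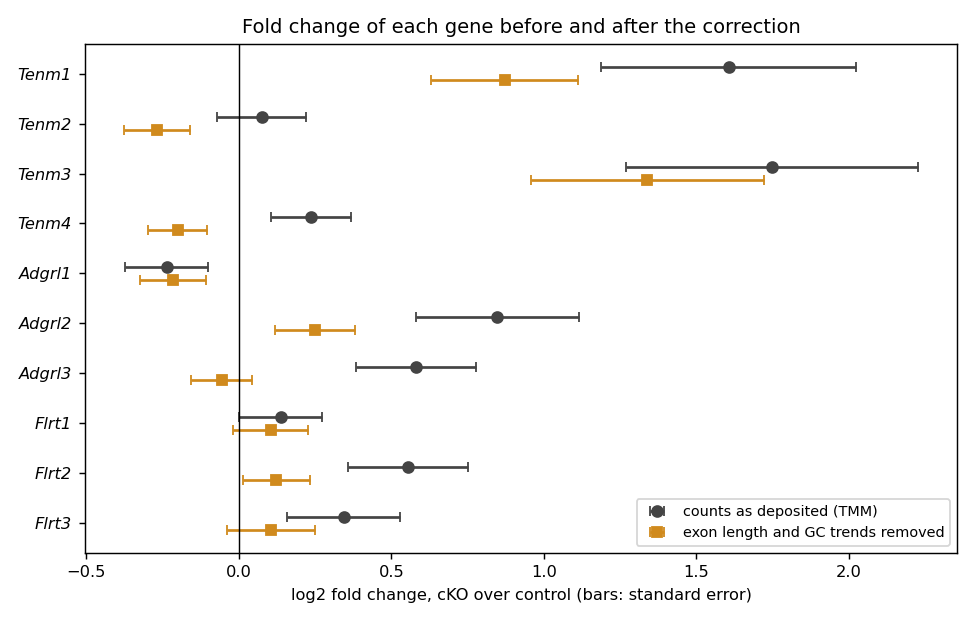
Log2 fold change of each gene, cKO over control, from edgeR on the counts as deposited (grey circles) and with the exon length and GC trends removed (orange squares); bars are standard errors. *Tenm3* and *Tenm1* keep 1.34 and 0.87 after the correction, while *Tenm2*, *Tenm4* and *Adgrl3* change side of 0.

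After correction, 6 of the 10 genes were above 0, their median was 0.10 beside -0.04 over all genes, 3 had an unadjusted p under 0.05 and 0 passed. Over all genes tested 26.3% had an unadjusted p under 0.05 in that fit. The corrected fit called 1 of all genes, 0.00458%. DESeq2 with the same trends called 1 member, *Tenm1* (log2 fold change 0.88 ± 0.25, SE; adjusted p = 0.0216), where it called 8.36% of the 20081 genes with an adjusted p; *Tenm3* had 1.35 ± 0.51 (SE; adjusted p = 0.0672). Without B8 the corrected fit called 4 members: *Tenm3* at 1.63 ± 0.16, *Tenm1* at 1.05 ± 0.15 and *Adgrl2* at 0.34 ± 0.10, all higher, and *Adgrl1* at -0.29 ± 0.09 (SE in each case), among 33.8% of all genes called. The choice of covariate mattered for some members. With the GC trend alone removed *Adgrl1* had a log2 fold change of 0.10 ± 0.12 (SE), against -0.53 ± 0.20 with the exon length trend alone. With the length of the whole gene in place of its exons, *Tenm3* had 1.33 ± 0.39 and *Tenm1* 1.02 ± 0.27 (SE).

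**Figure D5:**
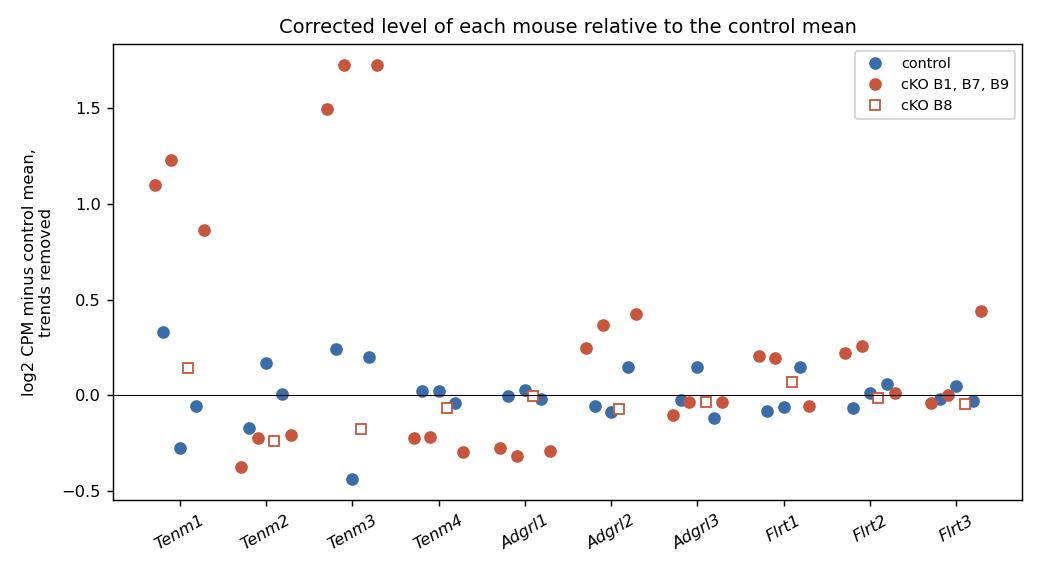
Log2 CPM of each mouse minus the control mean, after removal of the exon length and GC trends; blue circles are controls, red circles B1, B7 and B9, and open red squares B8. For *Tenm3*, *Tenm1* and *Adgrl2* the 3 red circles lie above all controls, for *Tenm2*, *Tenm4* and *Adgrl1* they lie below them, and the open square of B8 lies below all controls for *Tenm2* and *Tenm4*.

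Age differed between the groups as well. Against the 3 controls, the 2 P2 cKO mice (B7 and B9) had log2 fold changes of 2.15 ± 0.18 for *Tenm3* (adjusted p = 2.15e-05), 1.93 ± 0.21 for *Tenm1* (adjusted p = 5.63e-05) and 1.14 ± 0.11 for *Adgrl2* (SE in each case), and 8 members were called in edgeR, among 46.9% of all genes. With the trends removed 4 members were called among 33.7% of all genes, and *Tenm3* kept 1.70 ± 0.16 and *Tenm1* 1.04 ± 0.16 (SE). The 2 P4 cKO mice (B1 and B8) gave 1.14 ± 0.49 for *Tenm3* and 1.15 ± 0.44 for *Tenm1* (SE; adjusted p = 0.667 for both in edgeR), and 0 members were called, among 0.00476% of all genes. Among the P4 mice alone (A2 and A6 against B1 and B8) *Tenm3* had 0.94 ± 0.53 and *Tenm1* 0.96 ± 0.47 (SE; adjusted p = 0.989 for both in edgeR). Of these cKO mice B1 carried 3.03 times the *Tenm3* and 2.60 times the *Tenm1* of the highest control, and B8 was at the level of the controls. With postnatal day as a covariate over all 7 mice *Tenm3* had 1.38 ± 0.51 and *Tenm1* 1.36 ± 0.45 (SE; adjusted p = 0.271 for both). The comparisons of P2 and of P4 cKO mice with the controls share the 3 controls, and as the P2 mice were all cKO, age and genotype cannot be told apart for them.

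Other measures moved with B1, B7 and B9 or with the pair B7 and B9. The summed dorsal midbrain markers were 968, 1245 and 1316 CPM in B1, B7 and B9 against 801 to 910 CPM in the other 4. Of the 8 markers, 7 had a log2 fold change above 0, with a median of 0.50 (0.56 in the corrected fit). *Tfap2b* was the largest part of the sum, at 676, 883 and 944 CPM in B1, B7 and B9. *Pax7*, *Tfap2d*, *Tal1* and *Lhx1* were also higher in these mice than in the other 4, and *Gata3* was lower. *En1* and *En2* were lowest in B1 (2.78 and 11.1 CPM), and B8 had more of both (12.3 and 22.7 CPM) than any control. The 5 thalamus markers summed to 754, 873 and 821 CPM in B1, B7 and B9 against 566 to 665 CPM in the other 4. Of the 4 tested, 3 were above 0, with a median of 0.18 (-0.25 corrected). *Rora*, *Lhx9* and *Slc17a6* were higher in B1, B7 and B9 than in the other 4, and *Prkcd* was not. *Gbx2*, between 0 and 0.404 CPM in all 7 mice, was too low to be tested. The 5 astrocyte markers summed to 632 to 639 CPM in controls and 659 (B8) to 797 CPM in cKO mice, with 3 of 5 above 0 and a median log2 fold change of 0.23 that was -0.18 in the corrected fit. The 5 red blood cell markers summed to 132 to 496 CPM in controls and 57.7 (B9) to 179 CPM in cKO mice, with 5 of 5 below 0. In B7 and B9 the 5 microglia markers summed to 72.8 and 75.7 CPM, against 88.5 to 117 CPM in the other 5 mice, with 2 of 5 above 0. The 7 oligodendrocyte lineage markers summed to 358 and 319 CPM in B7 and B9, against 374 to 443 CPM, but 4 of 7 were above 0. Summed neuron markers overlapped, at 5481 to 6217 CPM in controls and 5489 to 6172 CPM in cKO mice. Of the 6, 2 were above 0, with a median of -0.24 (-0.30 corrected). *Tubb3* was at 1192, 1026 and 1026 CPM in B1, B7 and B9 and at least 1519 CPM in the other 4. *Rbfox3*, *Snap25* and *Stmn2* were likewise lower in B1, B7 and B9 than in every other mouse. In the opposite order, *Map2* was at 1986, 2577 and 2366 CPM in B1, B7 and B9 and at most 1228 CPM in the other 4. *Syt1* was also higher in B1, B7 and B9 than in the other 4. In none of 13 marker lists did edgeR call a gene. Counts that named no gene took 30.98% to 33.1% of A4, B7 and B9 and 37.32% to 38.18% of the other 4 libraries. Their part in the members' differences was not tested.

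Across the 7 libraries the patterns of 8 members were alike before the correction (reversed for *Adgrl1*), and those of *Tenm2* and *Flrt1* were less like them. Over the 28 pairs without these 2 genes the size of Pearson's r lay between 0.737 and 0.988 before the correction and between 0.137 and 0.983 after it, and over the 17 pairs with either of them between 0.0204 and 0.702 before it and between 0.00245 and 0.848 after it. These are r of log2 CPM over 7 points that share library and depth, and r was 0.98 between *Tenm1* and *Tenm3*, 0.99 between *Tenm3* and *Adgrl2* and -0.98 between *Tenm3* and *Adgrl1*. After the correction *Tenm1* and *Tenm3* stood at 0.95 and *Tenm3* and *Adgrl1* at -0.98, while *Tenm3* and *Tenm4* went from 0.97 to -0.93 and *Tenm3* and *Adgrl3* from 0.96 to -0.45. Such patterns were common. Of 11700 other protein-coding genes averaging 5 CPM or more, 25.5% had an r over 0.9 with *Tenm3* and 23.4% with *Tenm1*, against 0.795% with *Tenm2* and 6 genes with *Flrt1*. The gene most like *Tenm3* was *Zc3h11a* (r = 0.9999), most like *Tenm1* *Gria4* (r = 0.9988), which encodes an AMPA receptor subunit, and most like *Adgrl2* *Arhgap20* (r = 0.9993). For *Adgrl3* it was *App* (r = 0.9993), for *Tenm4* *Klf8* (r = 0.9992), for *Adgrl1* *Lmna* (r = 0.9975), for *Flrt2* *Fhod3* (r = 0.9971), for *Flrt3* *Kdm5a* (r = 0.9959), for *Tenm2* *Nrbf2* (r = 0.9839) and for *Flrt1* *Myo19* (r = 0.9544).

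The proteins with which these molecules are reported to interact were described through 18 genes, among them the Unc5 netrin receptors, the neurexins, the Shank scaffolds, *Robo1* and dystroglycan (*Dag1*), with the related receptor gene *Adgrl4*. Of these, 14 had a log2 fold change above 0, 7 an unadjusted p under 0.05 and 0 passed edgeR's test. Over all genes tested 50.2% were above 0 and 30.4% had an unadjusted p under 0.05. The partners' median was 0.26, and 0.04 after the correction. Without B8 edgeR called 11 of the 18, where it called 46.7% of all genes, and 6 with the trends removed, where it called 33.8%. *Robo1*, a Slit receptor reported to pair with FLRT3, was at 101, 79.9 and 86.4 CPM in the controls and 199, 305, 90.6 and 307 CPM in the cKO mice (log2 fold change 1.34 ± 0.36, SE; 0.73 corrected). Without B8 its corrected value was 0.92 ± 0.13 (SE; adjusted p = 2.51e-04 in edgeR). It had the pattern of *Tenm3*, with B8 among the controls. *Shank2* had a log2 fold change of 0.74 ± 0.24 and *Dag1* of 0.45 ± 0.16, and they kept 0.51 and 0.34 after correction. The netrin receptor genes *Unc5c* and *Unc5d* had 0.63 ± 0.24 and 0.62 ± 0.22 (SE), and -0.06 and 0.13 after correction. DESeq2 called 3 of the 18, among them *Robo1* and *Shank2*, both higher in cKO mice, where it called 9.97% of genes with an adjusted p. With 1 mouse left out it called 0 of the 18 without A4, B1, B7 or B9, 1 without A6, 2 without A2 and 11 without B8.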

How the data were processed

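Dorsal midbrain RNA of 3 controls and 4 cKO mice was poly(A)-selected, made into strand-specific libraries and sequenced as read pairs. The authors aligned trimmed reads to GRCm38.p5 with TopHat2 and Bowtie2 and deposited raw counts per gene from HTSeq on GENCODE annotation; the strand and overlap options of HTSeq are not given in the sources used here. Entries naming no gene were left out. Symbols, exon length (merged exons) and GC (longest transcript) came from GENCODE vM21, and promoter windows from RefSeq.

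Counts were filtered (minimum count 10, total 15), scaled by TMM and tested with edgeR 4.0.16 (glmQLFit, glmQLFTest, genotype only; R 4.3.3) with Benjamini-Hochberg adjustment over all genes, called at 0.05. CPM use TMM library sizes; log2 CPM add a prior count of 2. For corrected values a gam (mgcv 1.9.3) of each library's centred log2 CPM on log10 exon length and GC was entered as an offset. DESeq2 1.42.0 and limma 3.58.1 were alternatives. The tests were also run on simulated counts, but no simulated library stood apart from its group as B8 does, so that check does not cover this case. Replicates are separate mice, and every pair within a group differed by more than sampling noise (chi-square per degree of freedom at least 7.72). The genes named are the 10 members, the 6 of 18 partner genes with the largest absolute log2 fold change (1 of which is not reported here), *Pou4f2* and *Xist*, and for each member the gene of highest correlation. The genes named from the marker lists were chosen after their values were seen. The members, lists and alternatives were chosen with earlier results of these data known.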

Additional observations from a re-analysis of the deposited data

Results flagged for a closer look

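The *Tenm3* level of B8 stood apart from the other cKO mice. On the log2 CPM scale the gap between B8 and the next lowest cKO mouse took 0.851 of the range of the 4 cKO mice, above Dixon's 95% critical value for 4 values. B8 was also the lowest of the 4 for *Tenm1* (ratio 0.768) and *Adgrl2* (ratio 0.713), which stayed under that limit. Of the 11 groups of 4 examined (the 10 genes and their median), 1 was flagged, and chance flags about 1 in 20. The sample quality weight of B8 was 0.167, against 0.857 to 2.89 in the other 6 libraries. As the weights come from the counts fitted by genotype, a low weight restates that B8 lay apart from its group.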

How the results depend on the processing

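As controls and cKO mice carry different replicate numbers, no blocked fit could be made. No paired analysis was possible because the labels pair no mice. *Tenm1*, *Tenm3*, *Adgrl2* and *Flrt2* kept their direction under all 40 alternatives, with log2 fold changes of 0.69 to 1.93, 0.85 to 2.15, 0.088 to 1.14 and 0.085 to 0.71, and passed in 12, 10, 7 and 4 of them. The number of adhesion genes called (0 in edgeR) was 3 by DESeq2, 8 by limma-voom with weights, 8 for the P2 cKO mice, 1 by DESeq2 with both trends removed, 4 for the P2 cKO mice with both removed, and 0 to 8 when 1 mouse was left out, by edgeR with or without the trends or by DESeq2. The 18 partner genes gave 3, 12, 14, 3, 7 and 0 to 11, and all genes 1932, 10583, 10425, 1678, 7484 and 1 to 9930. The highest counts with 1 mouse left out were those without B8, and DESeq2 without another mouse called 12 genes (without A4) to 572 genes (without A2), with 0 to 2 of the adhesion genes. P4 mice only gave 0 genes, and 245 at an unadjusted p under 0.05, and *Pou4f2* then had -2.18 (adjusted p = 0.192, edgeR). The P2 and P4 fits with trends removed, limma-voom without weights, and the counts of genes with B1, B7 and B9 outside the controls were chosen after seeing the data.

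The median of the adhesion genes (0.45) became 0.104 with both trends removed, 0.115 with exon length alone, 0.15 with span and GC, 0.112 by DESeq2 with both, 0.106 and 0.0304 for the P2 and P4 cKO mice with both, and 0.0689 to 0.585 with 1 mouse left out. It was 0.234 in P4 mice only, 0.240 for the P4 cKO mice and 0.298 with day as a covariate. With both trends removed, *Tenm2* turned to -0.268, *Tenm4* to -0.201 and *Adgrl3* to -0.0558. Under exon length alone, span with GC, DESeq2 with both, and the P2 and P4 cKO mice with both, *Tenm2* had -0.382, -0.193, -0.259, -0.220 and -0.325, and *Tenm4* -0.361, -0.0381, -0.191, -0.256 and -0.158. *Adgrl3* had -0.0304, -0.0491, -0.0401 and -0.0764 under these other than span with GC. *Tenm2* was also below 0 with day as a covariate (-0.0520), in P4 mice only (-0.0396) and for the P4 cKO mice (-0.106). *Adgrl1* turned to 0.0964 with GC alone, *Flrt1* to -0.0213 with exon length alone and *Flrt3* to -0.0274 for the P4 cKO mice with both. With 1 mouse left out, *Tenm2* ranged from -0.349 to 0.162, *Tenm4* from -0.243 to 0.320, *Adgrl3* from -0.113 to 0.739 and *Flrt3* from -0.0143 to 0.461. No turned value passed, and the cause was not tested. Raw counts of the members were at least 592 in every library, and thinning all libraries to the smallest turned none of the 10 directions and called 0 of the 10.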

Other observations

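The median over the 10 genes of a mouse's difference from the control mean, on the log2 CPM scale, was 0.02, -0.05 and 0.02 in A2, A4 and A6, -0.02 in B8, and 0.40, 0.63 and 0.65 in B1, B7 and B9. Among the partner genes *Nrxn3*, outside the rule for named genes and chosen after its values were seen, went from a log2 fold change of -0.26 to -0.71 ± 0.22 (SE) once the length and GC trends were removed. It encodes a neurexin, a presynaptic adhesion molecule. Its corrected log2 CPM was 8.55, 8.85 and 8.59 in A2, A4 and A6 and 7.72, 7.72, 8.58 and 7.56 in B1, B7, B8 and B9. It did not pass edgeR's test with the trends removed (adjusted p = 0.136). Without B8 it had -1.0003 ± 0.11 (SE) and passed that test (adjusted p = 7.05e-05), as 33.8% of all genes did.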
